A study of Mus musculus with 16 samples.

Results

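The endoplasmic reticulum (ER) is one continuous membrane that is drawn into flat sheets and narrow tubules. Proteins with hairpins inserted into the cytosolic leaflet bend it: the REEP proteins Reep3, Reep4 and Reep5, the reticulon Rtn4 (also called Nogo) and the small hairpin protein Arl6ip1 favour tubules and curved edges, and the GTPase Atl2 (atlastin-2) fuses tubules into 3-way junctions. Ckap4 (CLIMP-63) holds the width of sheets, Rrbp1 (p180) is a ribosome-binding protein of the rough ER, and Vapa and Vapb anchor lipid transfer proteins at contacts with other membranes. In muscle cells the same membrane is rebuilt into the sarcoplasmic reticulum during differentiation. The 10 genes named here were picked by symbol from a table of 31053 genes, 1 entry per symbol, and all 10 were among the 10767 genes that were tested.

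The samples came from C2C12 cells, an established mouse myoblast line that fuses into myotubes. A total of 4 groups of 4 samples each were sequenced: WT_UNDIFF (wild-type myoblasts), WT_DIFF (wild-type myotubes), KO_UNDIFF (Fam134b knockout myoblasts) and KO_DIFF (Fam134b knockout myotubes). Fam134b is an ER-phagy receptor, which bends ER membrane and delivers it to autophagosomes. All groups were kept in DMEM with 10% FBS and differentiated without a switch to low serum, after the cultures had grown dense. The knockout was made with CRISPR-Cas9, the sources do not say whether it was 1 clone, and the genotype field of the labels reads "unknown", so WT and KO were taken from the sample titles. The titles and descriptions call the samples biological replicates without naming separate cultures, so that p-values measure the spread between these samples only.

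Reads assigned to genes ranged from 1484750 to 3287461 per sample, and KO_DIFF held the 2 shallowest libraries, replicate 4 (1484750) and replicate 2 (1790524). Fam134b, the targeted gene, read 149.7 to 250.8 normalized counts (reads divided by a factor for each sample) in WT_UNDIFF, 145.7 to 286.6 in WT_DIFF, 23.4 to 35.6 in KO_UNDIFF and 28.0 to 56.9 in KO_DIFF, with log2 fold changes of KO against WT of -2.86 in myoblasts and -2.46 in myotubes (limma, adjusted p = 2.95e-08 and 9.85e-07), and every KO sample was below every WT sample. The summed level of 8 myotube markers was 810 to 1469 normalized counts in WT_UNDIFF, 16750 to 25540 in WT_DIFF, 9.18 to 19.1 in KO_UNDIFF and 8925 to 12240 in KO_DIFF, with Myog at 0 in every KO_UNDIFF sample, while 4 cycling markers summed to 3049 to 3746, 1668 to 2732, 2362 to 4161 and 711 to 1201. Other marker lists differed between the groups as well, given here in the same order of groups. The 5 adipocyte markers summed to 8.91 to 20.01, 54.0 to 158, 67.2 to 114.5 and 166 to 399.8, with Adipoq and Plin1 at 0 throughout. Most of that sum came from Lpl (means 9.56, 85.2, 81.1 and 257.8). Pparg had lower means in the myotubes of either genotype (4.28, 1.82, 18.2 and 4.33), and Cidec was at or near 0. The 3 chondrocyte markers summed to 327 to 377, 256 to 420.1, 543 to 1034 and 355 to 813, nearly all of it from Sox9 with Acan and Col2a1 at or near 0. The 5 osteoblast markers summed to 111 to 150.1, 38.9 to 83.6, 68.9 to 118 and 26.3 to 76.5, nearly all of it from Runx2, with Ibsp and Alpl at 0 throughout. The 4 macrophage markers summed to at most 24.2 with Ptprc and Adgre1 at 0, and the 3 endothelium markers to at most 1.94 normalized counts. The 5 myoblast markers summed to 1002 to 1485, 2697 to 3231, 262 to 366 and 889 to 1192. Myod1, Cdh15 and Des had lower means in KO at both stages, while Myf5 went the other way in myoblasts (means 71.1 in WT_UNDIFF and 113.8 in KO_UNDIFF). Pax7 was at 0 in every KO sample, but had at most 5 reads in any WT sample. Marker levels thus differed between the genotypes at the same stage, and their part in the results on the ER genes was not tested. In bulk RNA, fewer cells of a type and less RNA per cell cannot be told apart.

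The starts of 3 genes that changed are shown first, because 1 count per gene sums over them. RefSeq windows (build GRCm38.p6, 250 bases before to 50 after a start) were found for 7 of the 10 genes, with 3 separate starts for Rtn4 at chr11:29692648-29692947, chr11:29693524-29693823 and chr11:29718313-29718612, all on the plus strand. Arl6ip1 lies at chr7:118118891-118129662, Rrbp1 at chr2:143947395-144011263 and Reep3 at chr10:67009189-67096945 in the GENCODE annotation of GRCm38, the same build as mm10. Arl6ip1 starts in chr7:118129576-118129875 and Rrbp1 in chr2:144011214-144011513, both on the minus strand. Of each window 120 bases are printed, 100 before the start in lower case and the first 20 transcribed bases in capitals.
Rtn4, the first start: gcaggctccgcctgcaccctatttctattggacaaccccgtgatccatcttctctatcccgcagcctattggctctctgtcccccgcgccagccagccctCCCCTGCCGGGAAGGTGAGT
Rtn4, the second start: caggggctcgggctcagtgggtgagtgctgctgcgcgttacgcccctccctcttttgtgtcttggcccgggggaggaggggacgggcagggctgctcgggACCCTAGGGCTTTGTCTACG
Rtn4, the third start: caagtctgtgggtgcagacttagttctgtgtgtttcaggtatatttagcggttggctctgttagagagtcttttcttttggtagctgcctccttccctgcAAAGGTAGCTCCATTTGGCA
Arl6ip1: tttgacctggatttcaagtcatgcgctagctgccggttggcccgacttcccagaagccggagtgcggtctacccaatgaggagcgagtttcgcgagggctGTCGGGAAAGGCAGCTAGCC
Rrbp1: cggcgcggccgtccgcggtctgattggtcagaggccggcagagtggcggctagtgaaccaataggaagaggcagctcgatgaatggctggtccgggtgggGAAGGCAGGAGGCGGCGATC
The 3 Rtn4 windows held 15, 35 and 1 CpG dinucleotides, against 19 for Arl6ip1, 32 for Rrbp1 and a median of 7 over all 32851 promoter windows. The E-box letters CAGCTG and CACCTG, which myogenic factors such as Myod1 and Myog can bind, were searched on both strands. Neither was present in any of the 9 windows, which belong to 7 of the 10 genes, while 32.9% of all windows held at least 1 of them (CAGCTG in 16.3%, CACCTG in 20.2%). Reep3, Reep4 and Reep5 had no window and were not searched. Rtn4 (chr11:29692947-29744331) has 10 annotated transcripts, and the deposited counts cannot say which start was used.

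**Figure D1:**
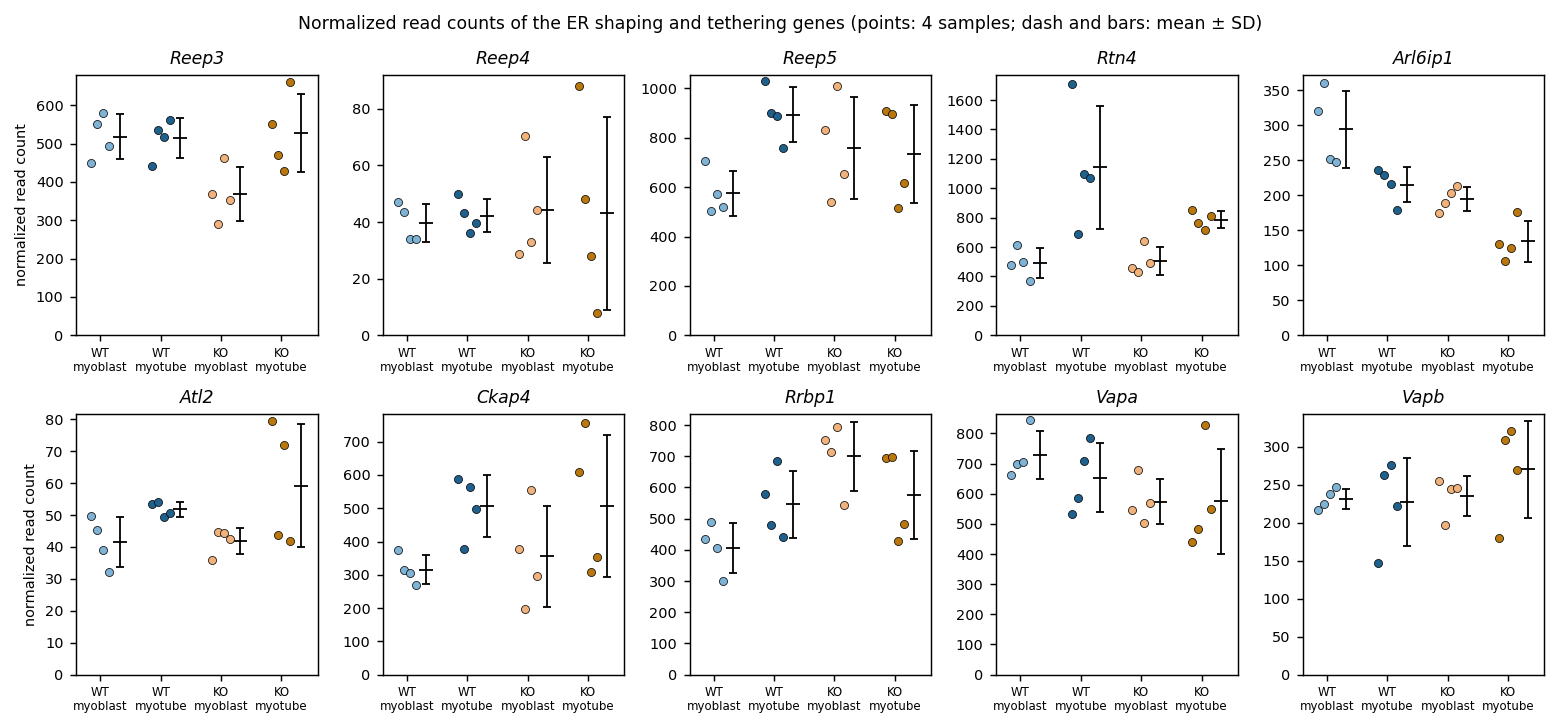
Normalized read counts (vertical axes, from 0) of the 10 genes in 4 samples of each group, with the mean and SD beside the points. Rtn4 sat higher in both myotube groups than in the myoblasts of the same genotype, Arl6ip1 stepped down from WT_UNDIFF to KO_DIFF, and Rrbp1 was higher in KO_UNDIFF than in WT_UNDIFF.

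Which ER shaping genes changed as WT myoblasts became myotubes was asked first. Rtn4 and Reep5 rose, both tubule proteins, and no member was called lower in the fit with all samples. That is 2 of 10 higher, where 13.8% of all tested genes were higher and 9.16% lower (limma, Benjamini-Hochberg adjusted p under 0.05). The median log2 fold change of the 10 genes was 0.21, beside -0.01 over all tested genes. The tubule and sheet roles did not move as sets here. The other tubule genes had 0.33 (Atl2), 0.10 (Reep4), -0.01 (Reep3) and -0.44 (Arl6ip1). The sheet genes Ckap4 and Rrbp1 had 0.67 and 0.42, and none of these was called in the fit with all samples. Under quantile normalization the share of higher genes among all those called moved from 60.1% to 49.7%, and Rtn4 and Reep5 remained the 2 members called.

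Rtn4 carried the largest change of the 10. Its normalized counts were 476, 617, 497 and 367 in WT_UNDIFF and 1707, 688, 1099 and 1072 in WT_DIFF. Every myotube sample was above every myoblast sample, and WT_DIFF replicate 1 stood highest. The means were 489.5 ± 102.5 and 1142 ± 421 (SD, n = 4), a log2 fold change of 1.17 (SE 0.22, limma adjusted p = 0.000524). The call held in 28 of 28 alternative fits, with adjusted p from 1.85e-06 to 0.00783. Exons of Rtn4 overlap Eml6 on the opposite strand, which had at most 5 reads in any sample.

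Reep5, an abundant REEP protein of tubules that is enriched in muscle ER, read 706, 503, 573 and 518 in WT_UNDIFF and 1029, 900.5, 888 and 757 in WT_DIFF. The groups did not overlap, and the lowest myotube sample was close to the highest myoblast sample. The log2 fold change was 0.64 (SE 0.21, adjusted p = 0.0301). It held in 22 of 28 alternatives. Leaving out WT_UNDIFF replicate 2, 3 or 4 or WT_DIFF replicate 1 or 3 took the adjusted p to between 0.0606 and 0.0934. With the share of reads on ribosomal protein genes as a covariate the change was 0.24 (adjusted p = 0.391).

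Ckap4 and Arl6ip1 also separated the WT groups without passing the test in the fit with all samples. Ckap4 read 376, 313, 304 and 268 in WT_UNDIFF and 589, 379, 563 and 496 in WT_DIFF, with a log2 difference of 0.67 (SE 0.28, adjusted p = 0.0879). With the ribosomal protein covariate that difference was 0.04 (adjusted p = 0.921), whereas it passed the test when only the WT samples were fitted or when samples were weighted (adjusted p = 0.00719 and 0.00588). Arl6ip1 read 320.2, 359.7, 251 and 247 against 236, 229, 216 and 179, a difference of -0.44 (SE 0.18, adjusted p = 0.0760). It passed the test with sample weights (-0.50, adjusted p = 0.00569), without KO_DIFF replicate 4 (adjusted p = 0.0472) and without both shallow KO_DIFF libraries (adjusted p = 0.0388). In all, 4 of the 10 genes had groups that did not overlap, 3 higher and 1 lower, where 28% of tested genes did. The exact permutation test (two-sided, 4 against 4) gives p = 0.0286 for each, the smallest it allows.

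In Fam134b knockout cells, differentiation went with higher Rtn4 and Reep3 and lower Arl6ip1. That is 2 of 10 higher and 1 lower, where 17.3% of tested genes were higher and 16.1% lower. Rtn4 was the only member whose groups did not overlap, where 27.4% of tested genes had such groups. The median log2 fold change of the members was 0.07, beside -0.02 over all tested genes.

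Rtn4 read 454, 429, 640.2 and 489 in KO_UNDIFF and 849, 766, 715 and 813 in KO_DIFF. The 4 knockout myotube samples lay close together (785.9 ± 58.1, SD, n = 4), unlike the WT myotubes, and all were above the myoblasts (503 ± 94.7). The log2 fold change was 0.66 (SE 0.22, adjusted p = 0.0232). The call held in 22 of 28 alternatives, with the highest adjusted p, 0.0715, when both shallow KO_DIFF libraries were left out. The Rtn4 difference between the genotypes in this change, -0.51 (limma interaction, adjusted p = 0.399), did not pass the test.

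Reep3 was 367, 291, 462 and 354 in KO_UNDIFF and 551, 469.9, 429 and 661 in KO_DIFF. The ranges overlapped only through KO_UNDIFF replicate 3 and KO_DIFF replicate 3. The log2 fold change was 0.52 (SE 0.17, adjusted p = 0.0219), held in 21 of 28 alternatives, and its adjusted p was 0.107 without the shallow libraries. In WT cells the same step gave -0.01 (SE 0.17). The interaction was 0.53 (unadjusted p = 0.0377 in limma, adjusted p = 0.251), so a difference between genotypes was not called. Of the 31-base stretches in the last 500 bases of Reep3 transcripts, 41.1% also occur in other genes, so its count may depend on how shared reads were assigned.

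Arl6ip1, a hairpin protein that helps shape tubules, fell during knockout differentiation. It read 174, 188, 204 and 213 in KO_UNDIFF and 129.7, 107, 125 and 176 in KO_DIFF, where replicate 4 just reached into the myoblast range. The log2 fold change was -0.55 (SE 0.18, adjusted p = 0.0198). Without KO_UNDIFF replicate 4 none of the 3 members passed the test in this comparison, with adjusted p of 0.053 for Reep3, 0.0521 for Rtn4 and 0.0603 for Arl6ip1. Without KO_DIFF replicate 2 the Arl6ip1 adjusted p was 0.0611.

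**Figure D2:**
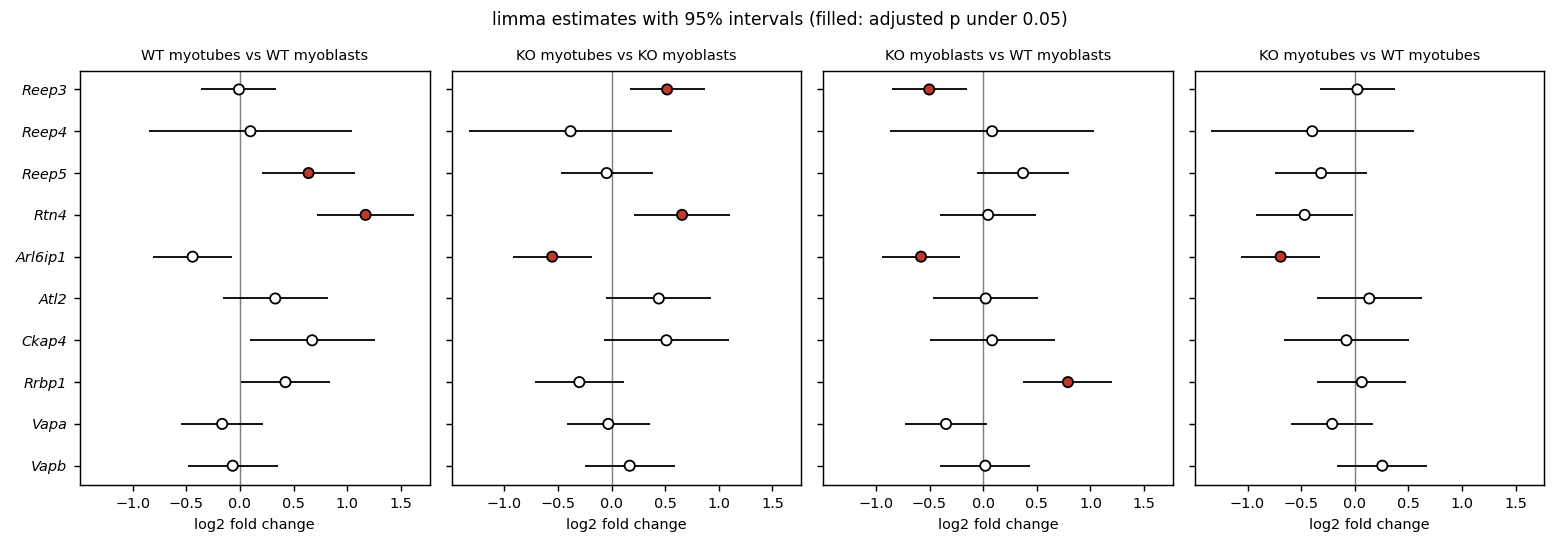
Log2 fold changes (horizontal axes) of the 10 genes in the 4 pairwise comparisons, with 95% limma intervals; filled points passed an adjusted p of 0.05. Rtn4 is filled in both differentiation panels, Arl6ip1 in both panels of KO against WT, and Reep4 has the widest intervals in every panel.

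The next comparison asked how loss of Fam134b went with these genes in undifferentiated cells. In KO myoblasts the sheet-associated Rrbp1 was higher than in WT, and the tubule genes Arl6ip1 and Reep3 were lower. The roles did not move as sets. The other tubule genes had small positive differences, Reep5 0.37, Reep4 0.08, Rtn4 0.05 and Atl2 0.02, and the other sheet gene, Ckap4, had 0.08. None of these was called in the fit with all samples. That is 1 of 10 higher and 2 lower, where 7.26% of tested genes were higher and 8.5% lower. Rrbp1 and Arl6ip1 were the 2 members whose groups did not overlap, where 26.8% of tested genes had such groups. The median of the members was 0.03, beside -0.01 over all tested genes.

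Rrbp1, whose long cytosolic part binds ribosomes and microtubules, read 434, 489, 405 and 299 in WT_UNDIFF and 752, 714, 793 and 542 in KO_UNDIFF. The lowest sample of each group was its replicate 4, and the lowest KO sample was still above the highest WT sample. The means were 407 ± 79.6 and 700.4 ± 110.2 (SD, n = 4), a log2 fold change of 0.79 (SE 0.20, limma adjusted p = 0.00777). The call held in 28 of 28 alternatives, with adjusted p from 0.000138 to 0.0424, and the change was 0.87 with the ribosomal protein covariate.

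In myotubes the Rrbp1 difference between genotypes was 0.07 (SE 0.20, 95% interval -0.35 to 0.48, adjusted p = 0.849). WT_DIFF read 578, 479, 684 and 442 and KO_DIFF 694, 699, 427 and 484, so these groups overlapped fully. The interaction was -0.72 (unadjusted p = 0.0179 in limma, adjusted p = 0.174) and was not called.

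Arl6ip1 was the gene lower in KO at both stages. In myoblasts the KO samples (174 to 213) all lay below the WT samples (247 to 359.7), with a log2 fold change of -0.58 (SE 0.18, adjusted p = 0.0271). In myotubes the KO samples (107 to 176) again lay below the WT samples (179 to 236), with -0.69 (SE 0.18, adjusted p = 0.00696). The myotube call held in 28 of 28 alternatives, with adjusted p up to 0.0404. The myoblast call held in 24, and was lost without WT_UNDIFF replicate 1 or 2 or KO_UNDIFF replicate 1 or 2 (adjusted p from 0.0535 to 0.106). These comparisons of KO with WT share no samples with each other, but each shares its samples with the differentiation comparisons. Among the 4 groups the means ran from WT_UNDIFF (294.5 ± 55.0) over WT_DIFF (215 ± 25.2) and KO_UNDIFF (195 ± 17.1) to KO_DIFF (134 ± 29.5), with overlap between WT_DIFF and KO_UNDIFF and between KO_UNDIFF and KO_DIFF, and none between WT_UNDIFF and WT_DIFF.

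Reep3 in WT_UNDIFF read 448, 552, 578 and 493, against 291 to 462 in KO_UNDIFF, with KO replicate 3 inside the WT range. Its log2 fold change was -0.50 (SE 0.17, adjusted p = 0.0455). The call held in 16 of 28 alternatives. It was lost with the omission of any of WT_UNDIFF replicates 2, 3 and 4, WT_DIFF replicates 3 and 4, and KO_UNDIFF replicates 1, 2 and 4, with limma adjusted p up to 0.139. It was also lost with no filter (0.0578), total scaling (0.0648), quantile normalization (0.0711) and a replicate block (0.0555).

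Arl6ip1 alone was called between KO and WT myotubes. No member was higher, where 9.74% of tested genes were, and 1 of 10 was lower, where 13.7% were. Arl6ip1 was also the 1 member with groups that did not overlap, where 19.4% of tested genes had such groups. The median over the members was -0.14, beside -0.07 over all tested genes. Rtn4 differed by -0.47 (SE 0.22, adjusted p = 0.124), and without WT_DIFF replicate 2, the lowest of its group, by -0.69 (adjusted p = 0.0174).

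No member was called for an interaction of genotype and differentiation, where 1.97% of tested genes had a positive and 1.48% a negative one. The members with an unadjusted limma p under 0.05 were 3, Reep3, Reep5 and Rrbp1. Reep5, which rose in WT cells, changed by -0.05 (SE 0.21) in KO cells, from 833, 540, 1009.8 and 652 in KO_UNDIFF to 909, 897, 517 and 617 in KO_DIFF, and its interaction was -0.69 (unadjusted p = 0.0288, adjusted p = 0.223). Both KO groups were wide and covered similar ranges.

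The contact-site proteins Vapa and Vapb were not called in any of the 5 comparisons in the fit with all samples. Vapa read 663, 699, 706 and 843 in WT_UNDIFF, 533, 585, 710.03 and 786 in WT_DIFF, 545, 677, 502 and 568 in KO_UNDIFF and 439.5, 484, 828 and 549.5 in KO_DIFF. Its largest difference, KO against WT myoblasts, was -0.35 (SE 0.18, adjusted p = 0.236), with KO_UNDIFF replicate 2 the only KO sample inside the WT range, and it passed the test with sample weights (-0.40, adjusted p = 0.0175). Vapb, which is mutated in a familial motor neuron disease, had group means of 231 ± 13.3, 227 ± 58.1, 235.5 ± 26.4 and 270.1 ± 63.9 in WT_UNDIFF, WT_DIFF, KO_UNDIFF and KO_DIFF (SD, n = 4). These 4 ranges overlapped, and the pairwise differences of Vapb were between -0.07 and 0.26 on the log2 scale, with 95% intervals that reached from -0.49 to 0.68.

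Atl2, the fusion GTPase, was likewise not called in the fit with all samples. It was counted with few reads, 21 to 82 per sample. Its means were 41.6 ± 7.72 in WT_UNDIFF, 51.8 ± 2.30 in WT_DIFF, 41.9 ± 4.12 in KO_UNDIFF and 59.3 ± 19.2 in KO_DIFF (SD, n = 4). Both myotube groups had the higher mean, with log2 differences of 0.33 (adjusted p = 0.334) in WT and 0.44 (adjusted p = 0.156) in KO. In KO_DIFF the samples split into 79.4 and 72.0 for replicates 1 and 3 and 43.8 and 42.0 for replicates 2 and 4, the shallow libraries. Without those libraries the KO change was 0.84 (adjusted p = 0.00928), and with sample weights it was 0.67 (limma adjusted p = 0.0311).

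Reep4, a REEP protein that clears ER from mitotic chromosomes, varied more than any other member in KO_DIFF. It read 88.1, 48.2, 27.9 and 7.99 in KO_DIFF, and the last value rests on 4 reads in the shallowest library. The SD of its log2 values there was 1.41, against a median of 0.39 over the members in KO_DIFF and 0.23, 0.22 and 0.25 in WT_UNDIFF, WT_DIFF and KO_UNDIFF. The other groups held 33.9 to 47.1 (WT_UNDIFF), 36.2 to 50.1 (WT_DIFF) and 28.9 to 70.6 (KO_UNDIFF). All 4 ranges of Reep4 overlapped, and its intervals were wide, such as -0.85 to 1.04 for WT differentiation. The model used 1 estimate of spread per gene over all groups, so the spread of the KO groups entered that interval too. Within WT_UNDIFF and WT_DIFF the SD of the Reep4 log2 values was 0.24 and 0.19. Changes inside these intervals could not be called in this fit.

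Each log2 value was set against its group mean, and the 45 pairs of members were correlated over the 16 samples. The median r of these pairs was 0.05, and 24 of the 45 were positive. Reep5 and Ckap4 moved together (Pearson r = 0.90, permutation p = 0.00125 within groups, adjusted p = 0.0281; Spearman rho = 0.86, permutation p = 0.00441, adjusted p = 0.0992; r = 0.83 without the 2 samples farthest from the median). Only 18 of the other 10766 tested genes followed Reep5 more closely than Ckap4 did. Reep5 and Vapa moved in opposite directions (r = -0.83, permutation p = 3e-05, adjusted p = 0.00135; rho = -0.89, permutation p = 0.00011, adjusted p = 0.00495; r = -0.75 without the 2 farthest samples). These were the 2 pairs of 45 whose Pearson r passed the adjustment. In each sample, the values of both genes of a pair come from the same library and share its depth and composition.

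The same deviations ran with the share of reads on 78 ribosomal protein genes. That share was 7.89% to 9.08% in WT_UNDIFF, 6.16% to 8.04% in WT_DIFF, 8.05% to 10.4% in KO_UNDIFF and 7.82% to 12.2% in KO_DIFF, lowest in WT myotubes and widest in KO myotubes. Within groups, Ckap4 was lower where the share was higher (r = -0.88, permutation p = 0.0005, adjusted p = 0.005 over 10 genes; rho = -0.92, permutation p = 0.00023, adjusted p = 0.0023; r = -0.93 without the 2 farthest samples). Reep5 did likewise (r = -0.84, permutation p = 0.00258, adjusted p = 0.0129; rho = -0.81, permutation p = 0.00935, adjusted p = 0.0468; r = -0.86 without the 2 farthest samples). The other 8 genes did not pass the adjustment, with r from -0.64 (Rrbp1) to 0.61 (Vapa). Such relations were common: of 10693 tested genes outside the ribosomal protein group 34.7% had an r above 0.5 in size, as 5 of the 10 members did, while 0.346% had an r as low as that of Ckap4 and 1.11% one as low as that of Reep5. With the share as a covariate Ckap4 turned from -0.08 (adjusted p = 0.875) to 0.86 (adjusted p = 0.00755) between KO and WT myotubes. Its mean was 506.8 normalized counts in both of these groups. Their shares barely overlapped (6.16% to 8.04% in WT_DIFF and 7.82% to 12.2% in KO_DIFF), so genotype and share cannot be told apart well in this fit. The shares of WT_UNDIFF and WT_DIFF barely overlapped either. The covariate also gave a call to Ckap4 in KO differentiation (0.66, adjusted p = 0.00306, from 376, 196, 555 and 296 in KO_UNDIFF to 609, 756, 309 and 354 in KO_DIFF) and to Reep5 between the myoblasts (0.48, adjusted p = 0.0201), and the latter passed with sample weights as well (adjusted p = 0.0146). Ckap4 in KO differentiation also passed without KO_UNDIFF replicate 3 (0.76, adjusted p = 0.0425). Under the same covariate the changes of Rtn4 in WT differentiation (0.94, adjusted p = 0.00783), Rrbp1 between the myoblasts (0.87, adjusted p = 0.000531) and Arl6ip1 between the myotubes (-0.86, adjusted p = 0.00966) kept their calls.

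**Figure D3:**
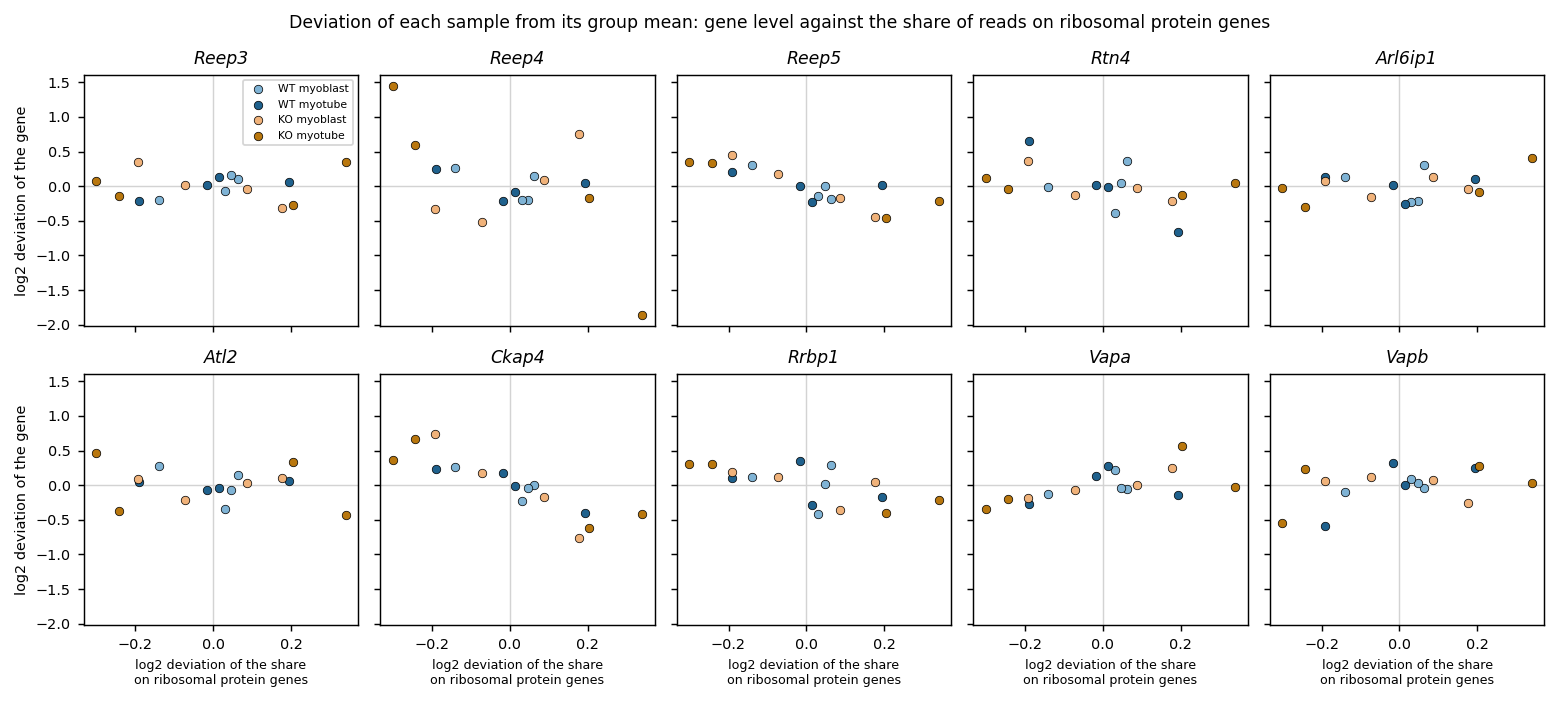
Deviation of each sample from its group mean, for the log2 level of each gene (vertical axes) against the log2 share of reads on ribosomal protein genes (horizontal axes), coloured by group. Ckap4 (r = -0.88) and Reep5 (r = -0.84) slope downwards through all 4 groups, Arl6ip1 shows no such slope (r = 0.33), and the KO_DIFF points lie farthest out.

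A search over the other 10766 tested genes gave those whose log2 profile over the 16 samples was most like each member, by the root mean square difference after centring each gene. For Vapb the closest gene was Rab22a, an endosomal Rab GTPase, with 0.17, where the median gene had 0.56. Hsbp1, on chromosome 8, was about as close (0.17). A gene with no variation at all would have been at 0.27 from Vapb, which itself varied little. The same distance was 0.29 for Reep3, 0.31 for Atl2 and 0.28 for Vapa, so low values for these genes partly reflect their flat profiles. Rab22a (chr2:173659760-173707343) lies 30.2 kb from Vapb (chr2:173737511-173784336) on the same strand, a fact looked up after the search. Of the 20 genes named by this rule, 5 were on the chromosome of their member, and the next nearest was Diap1, 3470 kb from Reep5. Rtn4 was most like Slc4a7, a bicarbonate transporter (0.19), and Tmed9, a cargo receptor between ER and Golgi (0.20). Ckap4 was most like Tmco1, an ER calcium channel (0.19). Arl6ip1 was most like Nup62, a nuclear pore protein (0.21), and Rrbp1 most like Angptl2, a secreted glycoprotein (0.21). Closest to Reep3, Reep4, Reep5, Atl2 and Vapa were Foxn3 (0.16), Tsen54 (0.34), Diap1 (0.19), Rhot1 (0.17) and Usp31 (0.17). Second in likeness were Sh3d19, Gmeb2, Speg, Kmt2d and Vdac2 for the same 5 genes, and Saal1, Slc39a6, Mkln1 and Hsbp1 for Arl6ip1, Ckap4, Rrbp1 and Vapb.

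Around these 10 genes stand 63 others of ER shaping and membrane contact, of which 55 were tested. In WT differentiation 16 rose and 3 fell, where 13.8% and 9.16% of all tested genes did, with a median log2 fold change of 0.39 beside -0.01. In KO differentiation 15 rose and 6 fell, where 17.3% and 16.1% did, with a median of 0.38 beside -0.02. The relatives of the members moved in both directions. Fis1, a mitochondrial fission adaptor, fell with -0.81 in WT and -1.09 in KO cells. Both tested reticulons rose with Rtn4: Rtn2 by 1.48 (SE 0.20, adjusted p = 1.6e-05) in WT and 1.77 in KO cells, and Rtn3, the ER-phagy receptor, by 0.59 (adjusted p = 0.0272) and 0.84. Among the 3 sheet genes the kinesin-binding Ktn1 rose, by 0.75 in WT and 0.85 in KO cells, while Sec61b and Lrrc59 of the ribosome-bearing ER fell, Sec61b with -0.80 and -0.69 and Lrrc59 with -0.55 and -0.52.

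Tethers between ER and plasma membrane were the role with the most calls in WT differentiation, 7 of 10 tested higher and 0 lower, where 13.8% of all tested genes were higher. They included Gramd1b, a sterol transporter (1.70, SE 0.39, adjusted p = 0.0033), the calcium sensor Stim1 (1.44, adjusted p = 0.00156) and Jph1, a junctophilin that holds the sarcoplasmic reticulum to the surface membrane (1.15, adjusted p = 0.00831). In KO differentiation 4 of the 10 rose, where 17.3% of all tested genes did, Gramd1b by 2.28. Of the 19 tested proteins that bind Vapa or Vapb, 2 rose in WT and 3 in KO cells (background 13.8% and 17.3%), and 0 fell in WT and 2 in KO cells (background 9.16% and 16.1%).

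Between the genotypes, 5 of 55 related genes were higher in KO myoblasts and 6 lower, where 7.26% and 8.5% of all tested genes were, with a median of 0.06 beside -0.01. In myotubes 3 were higher and 7 lower, where 9.74% and 13.7% of all tested genes were, with a median of -0.02 beside -0.07. Atl3, the relative of Atl2 that also acts in ER-phagy, was higher in KO at both stages (0.45 in myoblasts, adjusted p = 0.0292, and 0.94 in myotubes, SE 0.14, adjusted p = 5.87e-05). Rtn2 was lower in KO at both stages (-1.08 and -0.79), as were the ceramide transporter Col4a3bp (-1.18 and -1.20), Tmcc3 of tubule junctions (-1.41 and -1.03) and the junctophilin Jph2 (-1.09 and -1.75). The oxysterol-binding relative Osbpl1a (0.99 and 0.69) and Vmp1, a scramblase of ER contacts (0.85 and 0.80), were higher in KO at both stages. Reep6, a relative of Reep5, was higher in KO myoblasts (1.15, SE 0.30, adjusted p = 0.00957) and lower in KO myotubes (-1.52, SE 0.30, adjusted p = 0.000835).

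**Figure D4:**
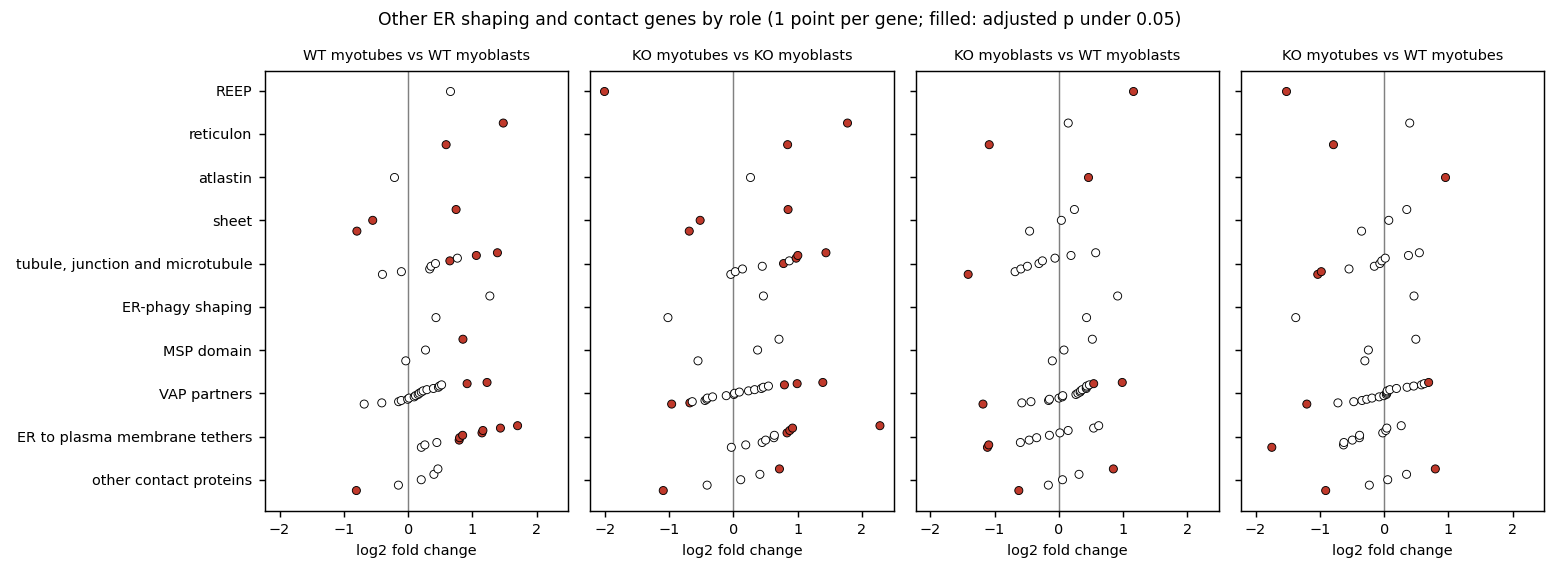
Log2 fold changes (horizontal axes) of the 55 tested related genes in the 4 pairwise comparisons, grouped by role on the vertical axis; filled points passed an adjusted p of 0.05. The ER to plasma membrane tethers sit to the right of 0 in WT differentiation, with 7 of 10 filled, and the single REEP gene, Reep6, changes side between the panels of KO against WT.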

How the data were processed

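RNA of 16 C2C12 samples was sequenced single-end (NEGEDIA Digital mRNA-seq). Per the study's methods and the labels, reads were cleaned with bbduk, aligned with STAR 2.6.0a to mm10 and counted per gene with HTSeq. The deposited values are log2 of a normalized count plus 1, made by the authors with a normalization not given in the sources used here. The inverse falls on whole multiples of 1 step per sample (tolerance 0.01 read), which gave the reads per sample. With no counts in the file, a limma model (version 3.58.1, R 4.3.3, eBayes with trend) with 4 group means was fitted to the log2 values of 10767 genes (kept where 4 or more samples reached 10 normalized counts), and p-values were adjusted over all of them (Benjamini-Hochberg). Fold changes are on the log2(count + 1) scale. The procedure was tested on simulated data. Single genes were compared by an exact permutation test, and correlations by 100000 permutations within groups. All 10 members, Fam134b, of 63 related genes those with the 2 largest called changes in each direction per comparison (others named in their role were chosen after their values were seen) and the 2 genes most like each member are named. Members and lists were chosen with earlier results of these data known. The covariate fit and the fit without both shallow libraries were added after seeing the data.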

Additional observations from a re-analysis of the deposited data

Results flagged for a closer look

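Among the 10 members and the 55 tested related genes, Reep6 is the one whose change with differentiation differed between genotypes by a test of the difference itself. Over all tested genes 212 had a positive and 159 a negative interaction. The normalized counts of Reep6 were 14.8, 13.5, 12.01 and 11.6 in WT_UNDIFF, 17.3, 26.99, 24.2 and 16.8 in WT_DIFF, 22.7, 38.2, 27.8 and 32.5 in KO_UNDIFF and 6.78, 8.76, 5.398 and 5.99 in KO_DIFF. The WT samples were higher as myotubes (0.65, adjusted p = 0.118) and the KO samples lower (-2.01, adjusted p = 2.35e-05), with no overlap within either genotype. The interaction was -2.67 on the log2 scale (SE 0.42, limma adjusted p = 0.000508), and it was -2.67 with the ribosomal protein covariate as well. The gene was counted with 3 to 46 reads per sample, and 3 to 7 in KO_DIFF. None of the 40 groups of 4 values of the 10 members held a sample that stood apart by Dixon's criterion (0.829). With 4 values this criterion flags only extreme gaps, and Reep4 in KO_DIFF (88.1, 48.2, 27.9 and 7.99) was not flagged.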

How the results depend on the processing

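The 10 members' log2 fold changes were recomputed 1385 times over 28 alternatives. Of these, 1271 were on the same side of the threshold and in the same direction. Another 37 were past it before and not after, 13 past it only after in the same direction, and 64 had the other sign. Of the 64, 0 were called in the fit with all samples. They include Ckap4 between the myotubes, which was called only with the covariate (0.86, adjusted p = 0.00755 in limma). Apart from the fits without 1 replicate, the counts of members called kept within 1.5 times, with these exceptions. Sample weights gave 4 in WT differentiation and 5 between the myoblasts. The ribosomal protein covariate gave 1 in WT differentiation and 2 between the myotubes. Leaving out 1 replicate gave 1 to 3 (WT differentiation), 0 to 4 (KO differentiation), 1 to 3 (myoblasts), 1 to 2 (myotubes) and 0 (interaction). With a replicate block the counts were 2, 3, 2, 1 and 0. Reep3 between the myoblasts lost its call in that fit (adjusted p = 0.0555). Deviations of samples with the same number correlated by -0.22 to 0.37, so the numbers were not taken as pairs. The changes of sign were as follows, and their cause was not tested. In WT differentiation, Reep3 was 0.016 and Reep4 -0.052 under quantile normalization, Reep3 was 0.041 with sample weights, and Reep3 was 0.016, Reep4 -0.59, Vapa 0.078, Vapb 0.11 and Fam134b -0.13 with the covariate. In KO differentiation, Vapa was 0.16 with weights, Reep4 0.25 and Vapa 0.082 without the shallow libraries, and Reep5 0.046 with the covariate. Between the myoblasts, Reep4 was -0.12 and Atl2 -0.016 with weights and Vapb -0.028 with the covariate. Between the myotubes, Reep3 was -0.11 with weights, Reep3 -0.074 and Reep4 0.24 without the shallow libraries, and Reep3 -0.014, Reep4 0.63, Reep5 0.28, Ckap4 0.86 and Vapb -0.015 with the covariate. The interaction of Reep4 was 0.16 without the shallow libraries, and with the covariate Reep4 had 0.36, Ckap4 0.62 and Vapa -0.16. Leaving out 1 replicate, the ranges were -0.076 to 0.061 (Reep3), -0.18 to 0.13 (Vapb) and -0.0042 to 0.35 (Fam134b) in WT differentiation, and -0.20 to 0.11 (Reep5), -0.22 to 0.084 (Vapa) and -0.86 to 0.24 (Reep4) in KO differentiation. Between the myoblasts they were -0.021 to 0.10 (Vapb), -0.084 to 0.17 (Rtn4), -0.091 to 0.12 (Atl2), -0.17 to 0.25 (Reep4) and -0.16 to 0.34 (Ckap4). Between the myotubes they were -0.091 to 0.12 (Reep3), -0.30 to 0.13 (Ckap4), -0.038 to 0.20 (Rrbp1), -0.022 to 0.28 (Atl2) and -0.88 to 0.22 (Reep4), and for the interaction -0.41 to 0.086 (Ckap4), -0.046 to 0.26 (Atl2), -0.054 to 0.25 (Vapa) and -0.96 to 0.14 (Reep4). Reep4 and Atl2 had the fewest reads of the members, 4 to 91 and 21 to 82 per sample.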
